A study of Caenorhabditis elegans with 6 samples.

Results

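The sperm genes of Caenorhabditis elegans described here were all genes whose WormBase symbol is msp-, msd-, ssp-, nspd- or spe- followed by a number. The rule uses names only and no measured value, and it gave 86 of the 46778 gene identifiers in the count tables. There were 31 msp genes, 29 spe genes, 12 ssp genes, 10 nspd genes and 4 msd genes, all annotated as protein-coding. The RNA came from whole L4 animals, which are in their last larval stage, and 6 libraries formed 3 groups of 2. The groups were the wild-type strain N2 on Escherichia coli K12 BW25113, strain UM10 on the same K12 bacteria, and UM10 on csgA(-) bacteria, which lack the gene for the main curli subunit. UM10 carries human alpha-synuclein A53T under the aex-3 promoter, which is active in neurons, so no group has a transgene aimed at the germline, and animals of every group were raised on their bacteria from the egg. The human transgene is not among the gene identifiers, so its level was not analysed here, and neither was N2 on csgA(-). The sex of the animals is not given in the labels.

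Food follows the sample titles, whereas the file names put each UM10 library on the other food. If the file names are the correct ones, each food difference below has the opposite sign, and UM10 on K12 and UM10 on csgA(-) would trade places in the comparisons with N2. The comparison of all 4 UM10 libraries with N2 does not depend on this. No label says that replicates came from separate cultures, so p-values measure only the spread between these libraries.

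A hermaphrodite worm makes its sperm during the L4 stage and then switches to oocytes, so transcripts of sperm genes at this age come from a short developmental window. Major sperm protein, encoded by the msp genes, polymerises into the fibres that drive the crawling sperm and is also released as a signal that triggers oocyte maturation. It is packed in spermatocytes into fibrous bodies attached to membranous organelles, which many spe products build, and other spe products are needed for sperm activation and for fertilisation. In whole animals, fewer sperm-forming cells and less RNA per cell cannot be told apart, and nor can a shift in developmental age between cultures.

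The libraries held 22657727 to 23532382 gene counts, and the sperm genes took 0.124% to 0.253% of them. Levels are given as CPM, counts scaled to a common library total with TMM factors (trimmed mean of M values), and the value after ± beside a log2 fold change is its standard error. N2 replicate 1 had a TMM factor of 0.610 and the others of 1.02 to 1.20, and 4.05% of its reads mapped to several places, against 2.57% to 3.08% elsewhere. Reads that map to several places were not assigned to a gene, so near-identical copies are under-counted, and values of single msp genes are uncertain for this reason. Within each group the 2 libraries differed far beyond counting error, with chi-square values over genes of 122 per degree of freedom in UM10 on csgA(-) and 172 in N2.

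All 86 genes had a position in the Ensembl annotation of the WBcel235 genome. Chromosome IV held 40 of them, or 46.5%, against 16.5% of all protein-coding genes, and the X chromosome held 0, against 13.5%. Chromosome I held 19, II held 16, V held 7 and III held 4. The msp genes lay in 4 clusters, when genes within 500 kb of each other were joined. There were 10 genes at II 4785898 to 5200180, 3 at II 5797065 to 5810330, 9 at IV 5055631 to 5316906 and 9 at IV 9689015 to 10143740. Of the 31 msp genes, 28 were annotated at 384 bases, and msp-74 and msp-58 at 234 bases. The msp lengths were all multiples of 3, so they are coding lengths without untranslated regions, and levels per length are too high for them to the extent that such regions hold reads.

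Per kb of annotated exon, the mean level over the 6 libraries was highest in the msp family, with a median of 105 CPM per kb. The medians were 36.4 for nspd, 31.5 for msd, 9.09 for ssp and 3.39 for spe, against 8.51 over all tested genes. The highest member of each family was msp-81 at 299.5, nspd-1 at 249, msd-4 at 94.5, ssp-10 at 56.7 and spe-18 at 48.3 CPM per kb. The structural msp genes therefore stood above the spe genes, most of which encode enzymes, membrane proteins and regulators.

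Of the 86 genes, 80 passed the filter on low counts and were tested. The genes msp-32 and nspd-8 had 0 counts in all 6 libraries, and msp-58, spe-27, spe-51 and 1 of the 2 identifiers named ssp-9 (WBGene00006038) were too low, at no more than 18 counts in a library. For msp-32 the 0 holds for the unstranded count, since the stranded columns together held 15 and 23 counts over the 6 libraries. With 3 counts as the limit that a count of 0 allows, nspd-8 was not detectable at this depth in reads that map to a single place. Reads that map to several places were not assigned, so the 0 does not show that its RNA was absent. Whether other copies share its reads was not tested.

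**Figure D1:**
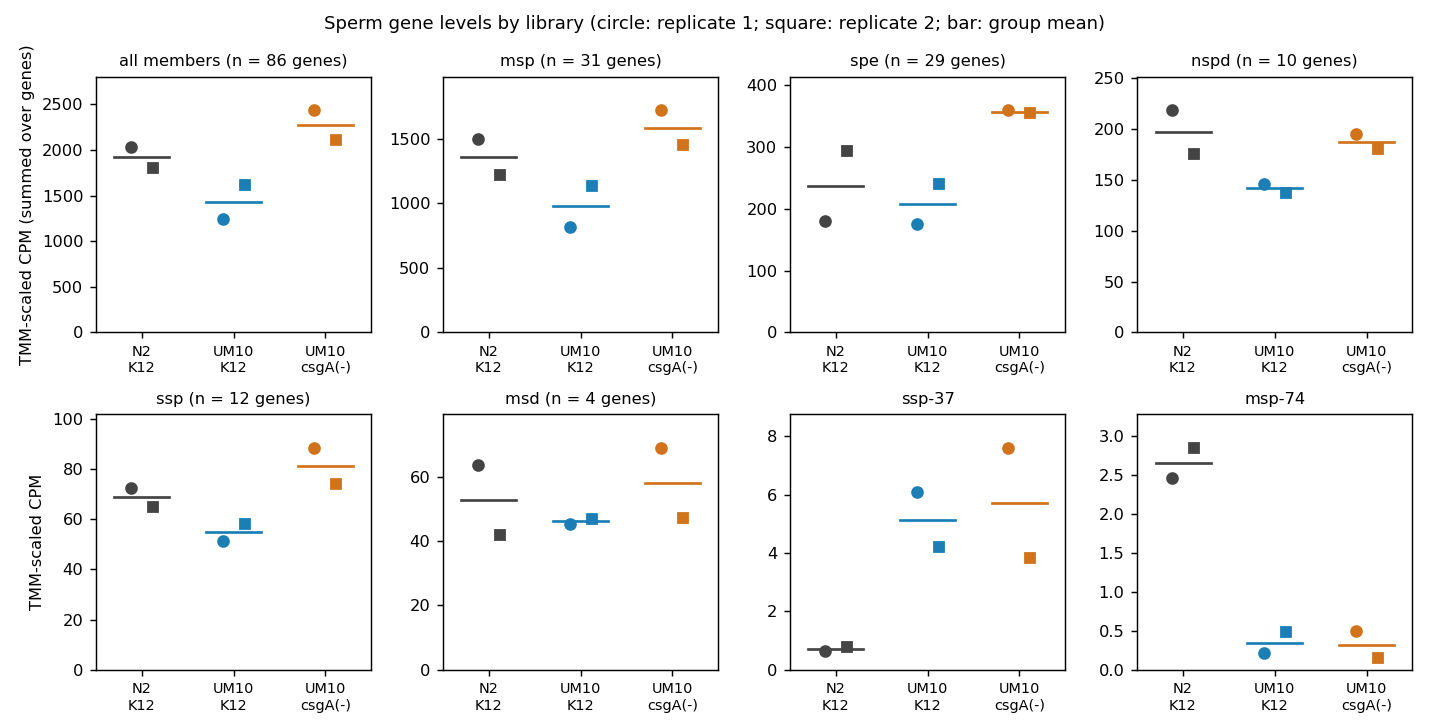
Summed TMM-scaled CPM of all 86 sperm genes and of each family, and the CPM of ssp-37 and msp-74, in each library, with circles for replicate 1, squares for replicate 2 and a bar for the group mean. UM10 on csgA(-) lies above UM10 on K12 in both libraries for all members, msp, spe, nspd, ssp and msd (for msd not as a share of all gene counts), while ssp-37 and msp-74 separate N2 from the 4 UM10 libraries.

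Summed over the 86 genes, the level was 2036 and 1799 CPM in the N2 libraries, 1238 and 1619 in UM10 on K12, and 2434 and 2107 in UM10 on csgA(-). On this TMM scale the groups did not overlap, with UM10 on K12 lowest and UM10 on csgA(-) highest. As shares of all gene counts, with no scaling factors, N2 was at 0.124% and 0.183% and UM10 on K12 at 0.148% and 0.187%, so these groups overlapped, while UM10 on csgA(-) stayed highest at 0.253% and 0.236%. Orders of N2 and UM10 on K12 given below for families and single genes are likewise those of the TMM scale. UM10 on K12 replicate 1 was the lowest library for 48 of the 80 tested genes, and UM10 on csgA(-) replicate 1 was the highest for 36.

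In UM10 on K12 against N2, 8 of the 80 tested sperm genes were higher and 72 lower, with a median log2 fold change of -0.47, against -0.09 over all 15331 tested genes. With the quasi-likelihood test of edgeR and p-values adjusted over all tested genes (Benjamini-Hochberg), 1 was called higher (ssp-37) and 0 lower, where 2.2% of all genes were called higher and 0.541% lower. At an unadjusted p under 0.05 there were 12 sperm genes, or 15%, against 19.1% of all genes, 10 of them lower, and DESeq2 called msp-74 lower as well. Both UM10 libraries lay above both N2 libraries for 5 sperm genes and below them for 38, where 25.9% of all genes lay apart upwards and 24.5% downwards. The sign of the median depended on scaling: with library totals and no scaling factors it was 0.10, below the 0.45 of all genes.

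Between the foods, 78 of the 80 genes were higher in UM10 on csgA(-) than in UM10 on K12 and 2 were lower, msp-74 and spe-29. The median log2 fold change was 0.66, against 0.00 over all genes, and both csgA(-) libraries lay above both K12 libraries for 64 genes and below them for 0, where 21.7% of all genes lay apart upwards and 19.0% downwards. No sperm gene was called by edgeR's quasi-likelihood test, and 0.0% of all genes were called higher and 0.0% lower. At an unadjusted p under 0.05 there were 10 sperm genes, or 12.5%, against 9.92% of all genes, and DESeq2 called 1, spe-47. The median stayed positive under each scaling, from 0.54 to 0.66, and with each library left out, from 0.37 without UM10 on csgA(-) replicate 1 to 0.78 without UM10 on K12 replicate 2.

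Against N2, UM10 on csgA(-) had 54 sperm genes higher and 26 lower, with a median log2 fold change of 0.23, against 0.07 for all genes. With library totals and no scaling factors 76 were higher and 4 lower, at a median of 0.60 against 0.48 for all genes, and with upper-quartile scaling 44 and 36, at 0.08 against -0.07. In edgeR, ssp-37 was called higher and msp-74 lower, where 3.95% of all genes were called higher and 5.11% lower. The libraries lay apart upwards for 28 and downwards for 7, against 34.3% and 26.5% of all genes. Without UM10 on csgA(-) replicate 1 the median was -0.02, so its sign rested on that library.

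With all 4 UM10 libraries against N2, 28 sperm genes were higher and 52 lower, at a median of -0.17, against -0.04 for all genes, and the median was 0.33 with library totals and no scaling factors, against 0.43. The calls were again ssp-37 higher and msp-74 lower, where 5.07% of all genes were called higher and 5.25% lower. The UM10 libraries lay apart from N2 upwards for 5 sperm genes and downwards for 6, against 21.1% and 16.2% of all genes. These 4 comparisons share libraries, so their medians are not independent.

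**Figure D2:**
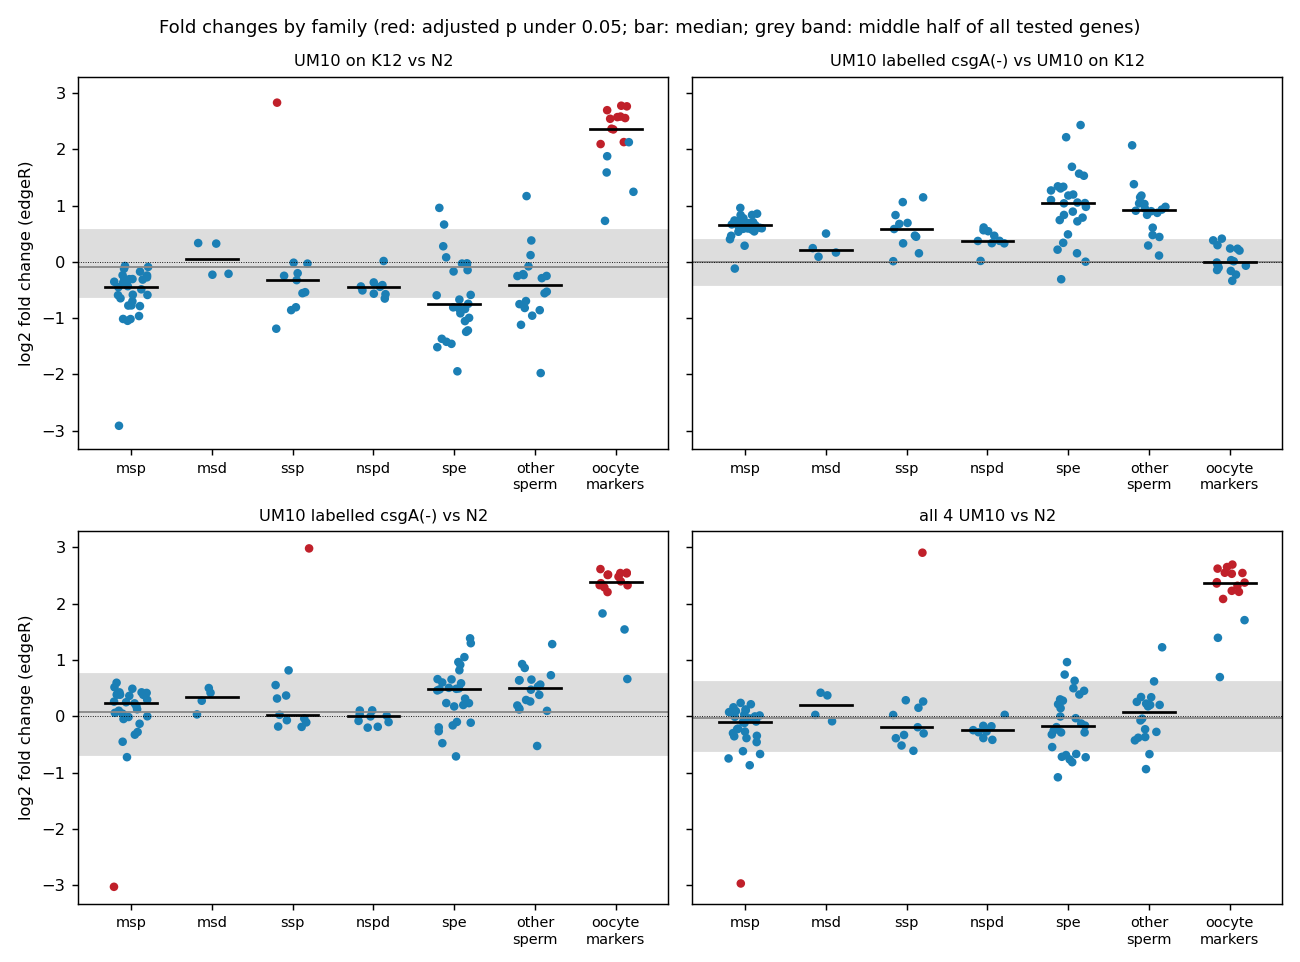
Log2 fold changes (edgeR) of the tested sperm genes by family, of 18 other sperm genes and of 16 oocyte markers in 4 comparisons, with red for an adjusted p under 0.05, a black bar for the median and a grey band for the middle 50% of all tested genes. The oocyte markers lie near 2.4 in each comparison with N2 and near 0 between the foods, while the medians of the sperm families lie below 0 in UM10 on K12 against N2 (other than msd, and with library totals as the scaling only spe stays below 0) and above 0 between the foods as titled.

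The gene ssp-37 (WBGene00012211, chromosome I 12561040 to 12561560, minus strand, 451 exon bases) belongs to the ssp genes, a family of small proteins related to major sperm protein. It had 9 and 18 counts in N2, 166 and 114 in UM10 on K12 and 185 and 100 in UM10 on csgA(-). Scaled to CPM, the N2 libraries were at 0.652 and 0.778, against 6.09 and 4.20 in UM10 on K12, and 7.60 and 3.84 in UM10 on csgA(-). All 4 UM10 libraries were above both N2 libraries, and the foods overlapped. Its log2 fold change was 2.83 ± 0.61 in UM10 on K12 against N2 (edgeR adjusted p 0.0356), 2.98 ± 0.61 in UM10 on csgA(-) against N2 (adjusted p 0.0171) and 2.90 ± 0.57 for all 4 UM10 libraries (adjusted p 0.0136). Between the foods it was 0.15 ± 0.54 (adjusted p 0.969). The 16 alternatives counted next include food from the file names, which cannot change the result for all UM10 libraries. For UM10 on K12 that alternative only repeats the result given above for UM10 on csgA(-). The call for all UM10 libraries held in 14 of 16 alternatives, with an adjusted p of up to 0.126 (without N2 replicate 1, and 0.0513 without UM10 on K12 replicate 1), and that for UM10 on K12 in 10 of 16, with an adjusted p of up to 0.247 (without UM10 on K12 replicate 1) and of 0.0682 to 0.227 without each of the other 3 libraries compared. The call for UM10 on csgA(-) was lost without N2 replicate 1 (0.123) and without UM10 on csgA(-) replicate 1 (0.0856).

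The nearest protein-coding gene to ssp-37 was looked up after its values were seen. W02D9.6 lies 367 bases away on the same strand (WBGene00012212, I 12560412 to 12560672) and was at 5.36 and 2.90 CPM in the N2 libraries, 23.8 and 9.91 in UM10 on K12, and 27.5 and 20.3 in UM10 on csgA(-). It was also higher in all 4 UM10 libraries, with a log2 fold change of 2.29 ± 0.50 (edgeR adjusted p 0.0199). On the other side, C49G9.2 lies 1195 bases away on the opposite strand and was at 1.52 and 1.47 CPM in N2 and 0.589 to 1.88 in UM10, a log2 fold change of -0.14 ± 0.55 (adjusted p 0.904). The ssp-37 level thus moved with that of its same-strand neighbour, and whether they share a transcript was not tested.

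The gene msp-74 (WBGene00003462, chromosome II 5115102 to 5115335, minus strand) is 1 of the 2 msp genes annotated at 234 bases. It had 34 and 66 counts in N2, 6 and 13 in UM10 on K12 and 12 and 4 in UM10 on csgA(-), or 2.46 and 2.85, 0.220 and 0.479, and 0.493 and 0.154 CPM. All UM10 libraries were below both N2 libraries. The log2 fold change of all 4 UM10 libraries against N2 was -2.97 ± 0.61 (edgeR adjusted p 0.0151), and the call held in 13 of 16 alternatives, with an adjusted p of 0.0890 without N2 replicate 1, 0.0521 without N2 replicate 2 and 0.0723 without UM10 on K12 replicate 1. Against N2 alone it was -3.03 ± 0.77 in UM10 on csgA(-) (adjusted p 0.0352, and 0.0523 to 0.115 with any 1 library left out) and -2.91 ± 0.76 in UM10 on K12 (adjusted p 0.0723, not called). Among the 16 alternatives, food from the file names cannot change the result for all UM10 libraries. The other 8 tested msp genes of the msp-74 cluster had log2 fold changes of -0.67 to -0.09 in the comparison of all UM10 libraries, and none was called. At 4.74 CPM per kb msp-74 was the lowest of the 29 tested msp genes. Its nearest protein-coding genes, both on the opposite strand, were looked up too. F09C12.8, 948 bases away, had a log2 fold change of -0.31 ± 0.41 for all UM10 libraries (edgeR adjusted p 0.677). On the other side, srsy-1, 697 bases away, was at 0.0724 to 0.216 CPM and was not tested.

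The most abundant msp gene per length was msp-81 (WBGene00003467, IV 9836034 to 9836417), at 149.5 and 113 CPM in the N2 libraries, 66.5 and 87.2 in UM10 on K12, and 146 and 127 in UM10 on csgA(-). UM10 on K12 was the lowest group without overlap, and N2 and UM10 on csgA(-) overlapped. The log2 fold change was -0.77 ± 0.41 against N2 (edgeR adjusted p 0.326) and 0.83 ± 0.41 between the foods (adjusted p 0.548). Next were msp-59, at 98.7 and 92.95 CPM in the N2 libraries, 61.7 and 100.4 in UM10 on K12, and 141 and 116 in UM10 on csgA(-), and msp-19, at 94.9 and 72.5, 52.6 and 69.96, and 121 and 97.3 CPM. None of these passed the test in any comparison.

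Summed over the 31 msp genes, the level was 1502 and 1223 CPM in the N2 libraries, 821 and 1137 in UM10 on K12, and 1722 and 1451 in UM10 on csgA(-). UM10 on K12 replicate 1 was the lowest library for 28 of the 29 tested msp genes and UM10 on csgA(-) replicate 1 the highest for 18. All 29 in UM10 on K12 against N2 had negative log2 fold changes, with a median of -0.45, which became 0.13 with library totals and no scaling factors, where the median of all genes was 0.45. Between the foods 28 of 29 were positive, with a median of 0.65, a range of 0.53 to 0.65 over the scalings and of 0.37 to 0.78 with each library left out.

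The msp genes of chromosome II lay lower in UM10 against N2 than those of chromosome IV. In UM10 on K12 the median log2 fold change was -0.78 for the 12 tested genes on II, and 12 of them had no overlap with N2, against -0.31 for the 17 on IV, of which 7 had none, where 24.5% of all genes lay apart downwards. With all 4 UM10 libraries the medians were -0.42 on II, with 0 of 12 genes positive, and 0.01 on IV, with 9 of 17 positive. With library totals and no scaling factors they were 0.10 and 0.51, so the sign on II changed and the order did not. The order was the same with each library left out, from -0.60 to -0.33 on II and from -0.14 to 0.09 on IV. The cluster at II 5797065 to 5810330, which holds msp-63, msp-142 and msp-64, had the lowest median of the 4, at -0.75, against -0.35 for the other cluster on II and 0.01 for both clusters on IV. Between the foods the 2 chromosomes had similar medians, 0.62 and 0.67. The part of multimapping reads in this difference was not tested.

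**Figure D3:**
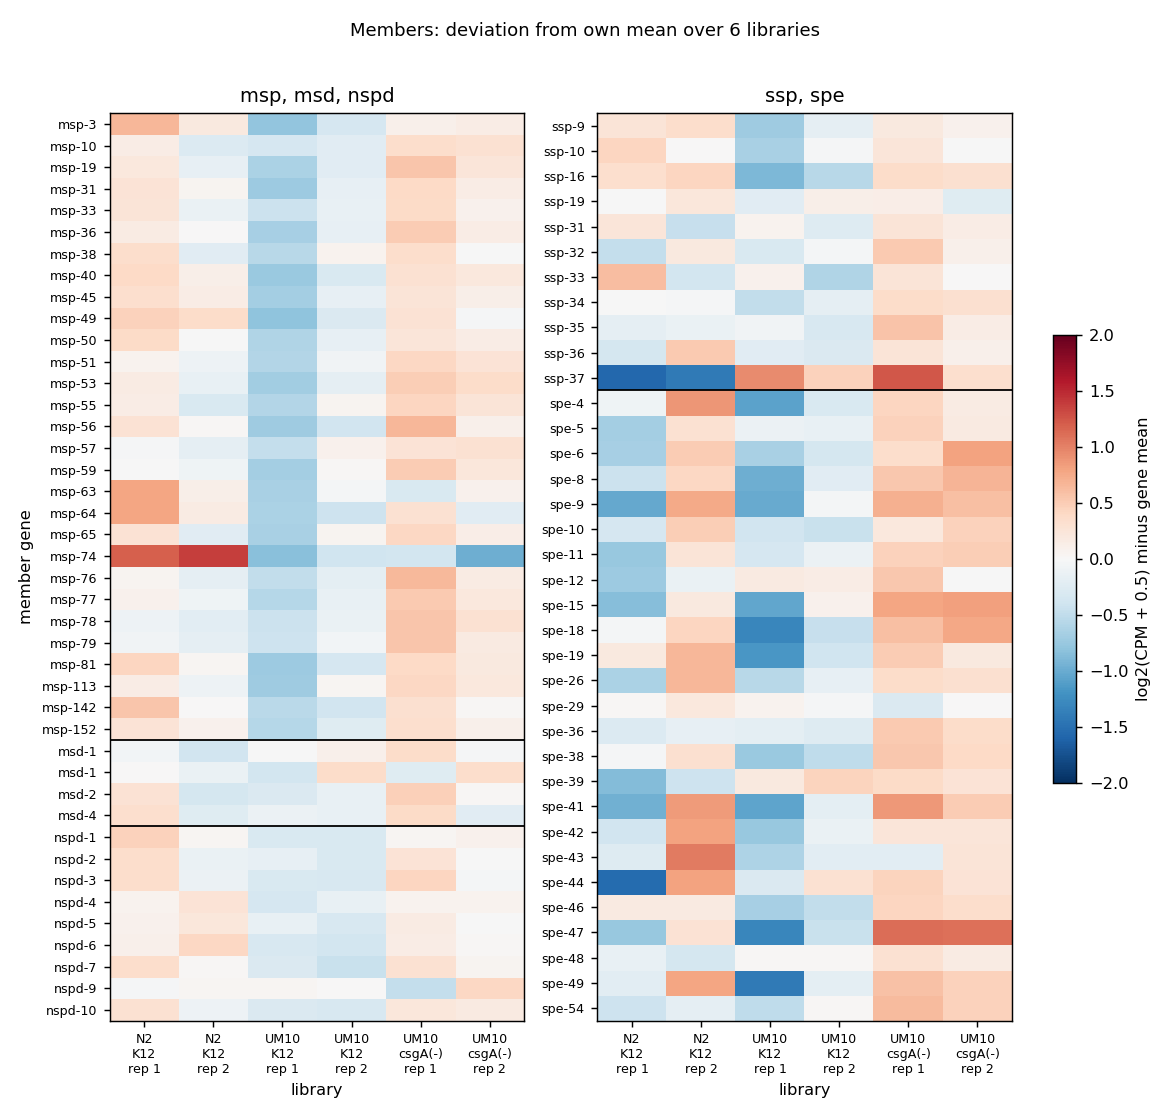
Deviation of log2(CPM + 0.5) from the mean of each gene over the 6 libraries, for 78 of the 80 tested sperm genes (rows) in each library (columns), with red above and blue below the mean. Most msp rows are bluest in UM10 on K12 replicate 1, ssp-37 and msp-74 stand out between N2 and UM10, and most spe rows differ between the 2 N2 libraries.

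The msd genes encode small proteins with a major sperm protein domain. Their most abundant member, msd-4 (WBGene00016447, III 4868414 to 4868743), was at 38.9 and 25.98 CPM in the N2 libraries, 28.4 and 27.6 in UM10 on K12, and 40.3 and 25.99 in UM10 on csgA(-). Replicates differed as much as groups did, and the log2 fold changes were between -0.21 and 0.24. The gene msd-2 was at 22.4 and 14.3, 14.9 and 16.4, and 25.7 and 18.6 CPM, and all of its 330 exon bases lie within F44D12.16 on the same strand. Both identifiers named msd-1 were low, at 1.47 to 2.79 CPM for WBGene00009680 and 0.110 to 0.516 for WBGene00009684.

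The nspd genes, nematode-specific peptides of family D, are short genes with a median of 216 exon bases. Summed over the 10 genes, their level was 218 and 176 CPM in the N2 libraries, 146 and 138 in UM10 on K12, and 195 and 180 in UM10 on csgA(-), and it was lowest in UM10 on K12. The leading member nspd-1 (WBGene00022754, I 6097579 to 6097791) was at 71.9 and 53.5, 42.2 and 42.001, and 53.4 and 55.6 CPM in the same order. Its log2 fold change was -0.57 ± 0.37 in UM10 on K12 against N2 (edgeR adjusted p 0.414). In nspd-2 and nspd-7 the mean was also lowest in UM10 on K12, at 40.97 ± 3.08 CPM against 52.8 ± 12.6 in N2 and at 22.3 ± 1.87 against 33.0 ± 5.38 (SD, n = 2). Of the 9 tested nspd genes, 8 lay lower in UM10 on K12 than in N2 without overlap (24.5% of all genes did), at a median of -0.44, which was 0.09 with library totals and no scaling factors, and between the foods 9 of 9 were positive at a median of 0.37.

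Among the ssp genes, ssp-10 was at 24.7 and 18.4 CPM in the N2 libraries, 11.4 and 17.9 in UM10 on K12, and 21.8 and 18.2 in UM10 on csgA(-). The next were ssp-34, at 14.9 and 14.7, 10.4 and 13.2, and 19.4 and 18.7 CPM, and ssp-35, at 9.34 and 9.68, 10.2 and 8.44, and 16.1 and 11.9 CPM. Both were highest in UM10 on csgA(-), without overlap with the other groups. In UM10 on K12 against N2, ssp-37 was the only positive value among 11 tested ssp genes, whose median was -0.32 (0.16 with library totals and no scaling factors), and between the foods 11 of 11 were positive at a median of 0.58. None but ssp-37 was called.

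The spe genes were set in order of their roles, with the grouping made after their values were seen. The regulator spe-44 (WBGene00007732, IV 12452063 to 12454215), a transcription factor of spermatocytes, was at 3.55 and 20.02 CPM in the N2 libraries, 9.17 and 14.1 in UM10 on K12, and 15.6 and 13.8 in UM10 on csgA(-). Its N2 libraries spanned the values of all the others. The log2 fold change of all UM10 libraries against N2 was 0.14 ± 0.56 (edgeR adjusted p 0.901), or -0.70 without N2 replicate 1 and 1.87 without N2 replicate 2.

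Genes for building and sorting the fibrous bodies and membranous organelles include spe-18, which is needed for fibrous body assembly. It was the most abundant spe gene (WBGene00009308, II 13151459 to 13153399), at 51.8 and 72.2 CPM in the N2 libraries, 21.4 and 38.4 in UM10 on K12, and 81.4 and 91.4 in UM10 on csgA(-). The 3 groups did not overlap. The log2 fold change was -1.05 ± 0.42 in UM10 on K12 against N2 (edgeR adjusted p 0.207) and 1.53 ± 0.42 between the foods (adjusted p 0.272). The myosin VI gene spe-15 was at 14.4 and 30.6, 12.7 and 28.1, and 46.3 and 47.1 CPM, a difference of 1.20 ± 0.49 between the foods (adjusted p 0.430).

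Lower in abundance were spe-4, a presenilin-related gene, at 4.85 and 9.99, 2.20 and 4.09, and 7.15 and 5.84 CPM, and spe-6, a casein kinase gene, at 3.69 and 8.95, 3.74 and 4.68, and 7.93 and 11.1 CPM. The vacuolar ATPase subunit gene spe-5 was at 3.62 to 8.59 CPM, the kelch gene spe-26 at 2.32 to 6.40 and the palmitoyltransferase gene spe-10 at 1.18 to 2.72. Of these 5 genes, none was called, and their log2 fold changes between the foods were 0.49 to 1.18. Exons of spe-5 and spe-26 overlap those of other genes.

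A different pattern was seen in spe-39 (WBGene00004975, V 6785451 to 6787864), a vesicle-sorting gene that is also used in many other tissues. It was at 23.2 and 32.1 CPM in the N2 libraries, 49.2 and 58.5 in UM10 on K12, and 56.2 and 51.8 in UM10 on csgA(-). All UM10 libraries lay above both N2 libraries, with a log2 fold change of 0.96 ± 0.34 (edgeR adjusted p 0.0887, not called), and the foods differed by 0.00 ± 0.37. Its neighbour in abundance, spe-48, was at 30.1 and 26.1, 34.1 and 34.0, and 41.4 and 37.8 CPM.

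For sperm activation, the tyrosine kinase gene spe-8 was at 4.42 and 8.34 CPM in the N2 libraries, 2.90 and 5.16 in UM10 on K12, and 9.20 and 10.2 in UM10 on csgA(-), a log2 fold change of 1.27 ± 0.52 between the foods (edgeR adjusted p 0.439). The gene spe-47, whose product holds a major sperm protein domain and helps to time activation (WBGene00021271, I 2617529 to 2620430), was at 1.67 and 3.98 CPM in the N2 libraries, 0.990 and 2.21 in UM10 on K12, and 7.48 and 7.41 in UM10 on csgA(-). It was highest in both csgA(-) libraries. Its log2 fold change between the foods was 2.21 ± 0.62, with an adjusted p of 0.280 in edgeR, 0.0182 in edgeR without the filter on low counts and 0.0348 in DESeq2. Its exons overlap those of Y23H5A.9 on the opposite strand, and its stranded counts summed to 1.20 times the unstranded count. Reads that could belong to either gene were left out of the unstranded count used here, so spe-47 may be under-counted.

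Genes of the sperm surface and of fertilisation were low. The gene spe-38, for a membrane protein of the sperm surface, was at 0.507 and 0.778 CPM in the N2 libraries, 0.110 and 0.221 in UM10 on K12, and 0.986 and 0.845 in UM10 on csgA(-). It had the largest log2 fold change of any tested sperm gene between the foods, 2.43 ± 0.78 (edgeR adjusted p 0.339). That value rests on few reads, since spe-38 had 80 counts over the 6 libraries, and its exons overlap those of impt-1. The EGF-repeat gene spe-9 was at 0.290 and 2.20, 0.293 and 1.07, and 2.14 and 1.92 CPM. In N2 it was higher in replicate 2 than in replicate 1, and its exons overlap those of C17D12.5.

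The related membrane protein genes spe-42 and spe-49 were at 0.330 to 1.95 and 0.220 to 2.81 CPM, and both were lowest in UM10 on K12 replicate 1. Exons of spe-49 overlap those of srn-1. The gene spe-36, for a secreted sperm protein, was at 0.290 to 0.863 CPM, but its stranded counts summed to 2.35 times the unstranded count, and its exons overlap those of F40F11.3 and F12F6.1. The other secreted factor, spe-51, had 5 to 11 counts in a library and was not tested. The gene spe-11, whose product is brought by the sperm and needed by the embryo, was at 7.098 and 14.9, 9.75 and 11.4, and 17.2 and 17.7 CPM.

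As a family, the tested spe genes had a median log2 fold change of 1.04 between the foods, with 26 of 27 positive, and the median was 0.67 to 1.11 with each library left out. In UM10 on K12 against N2 it was -0.74, with 23 of 27 negative, but it was -1.15 without N2 replicate 1 and 0.01 without N2 replicate 2. With all 4 UM10 libraries it was -0.17, and -0.58 and 0.49 in the same order. The direction of the spe family against N2 therefore rested on which N2 library was used.

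The 2 N2 libraries differed by family. On the log2(CPM + 0.5) scale, N2 replicate 1 was above replicate 2 for 28 of the 29 tested msp genes, by a median of 0.27, and for 2 of the 27 tested spe genes, whose median was -0.97. Over all tested genes the median was -0.06. The summed spe level was 180 CPM in N2 replicate 1 and 293 in replicate 2, while UM10 on K12 was at 175 and 240 and UM10 on csgA(-) at 359 and 354.5.

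This split moved with gene length. Across the 80 tested sperm genes, the difference between the N2 libraries had a Pearson correlation of -0.77 with log2 exon length, and the points share both libraries. Within the 27 spe genes it was -0.55, and within the 53 msp, msd, ssp and nspd genes, which are all short, it was 0.04. Over all 15286 tested genes with a length it was -0.33, with a median difference of 0.38 for 1179 genes under 500 bases and -0.10 for longer ones. The part of gene length in the differences between groups was not tested.

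**Figure D4:**
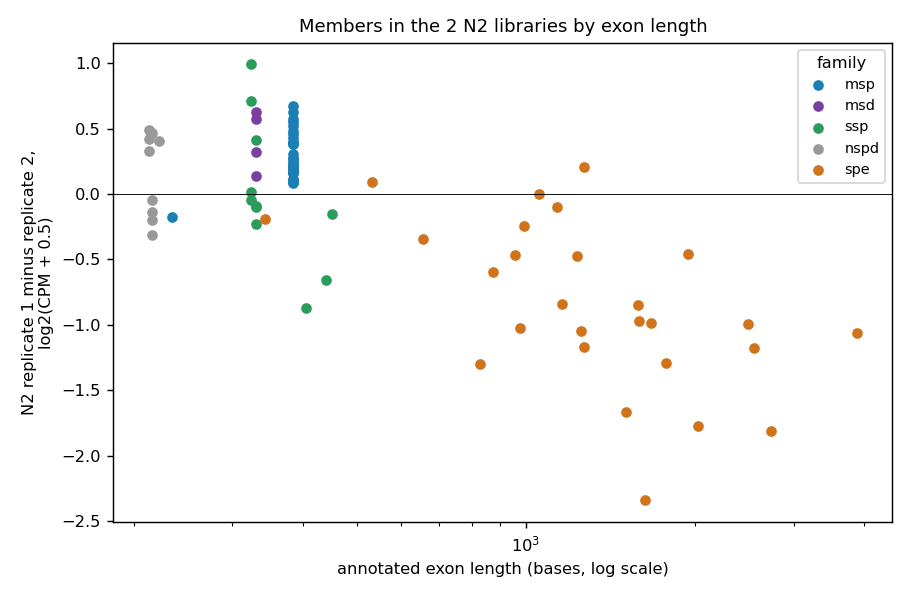
Difference between N2 replicate 1 and N2 replicate 2 on the log2(CPM + 0.5) scale against annotated exon length in bases (log axis) for the 80 tested sperm genes, coloured by family. Nearly all msp genes lie just above 0, and 25 of the 27 spe genes, which are longer, lie at or below 0.

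A list of 18 other sperm genes was followed beside the named families, and it holds sperm phosphatases (gsp-3, gsp-4), sperm chromatin proteins (spch-1, spch-2, spch-3), the ssq genes and the ferlin gene fer-1. Their summed level was 364 and 423 CPM in the N2 libraries, 252 and 339 in UM10 on K12, and 549 and 507 in UM10 on csgA(-), with UM10 on csgA(-) highest, and N2 and UM10 on K12 overlapped as shares of all gene counts. Between the foods 18 of 18 were positive, at a median log2 fold change of 0.92, and 16 had no overlap, where 21.7% of all genes lay apart upwards. In UM10 on K12 against N2, 15 of 18 were negative at a median of -0.41, which was 0.11 with library totals and no scaling factors. None was called by the main edgeR test in any of the 4 comparisons. At an unadjusted p under 0.05 there were 4, 9, 1 and 1 (UM10 on K12, food, UM10 on csgA(-), all UM10). Over all genes the shares were 19.1%, 9.92%, 28.4% and 28.3%. For all UM10 libraries DESeq2 called 1 higher. There edgeR also called 1 higher without the filter on low counts, with a term for replicate number and with the first stranded column. It called 1 higher between the foods without that filter and with that term. Without that filter it called 1 lower in UM10 on K12 against N2. The gene fer-1 showed the widest split in N2, at 1.59 CPM in replicate 1 and 19.8 in replicate 2.

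The 16 oocyte markers summed to 1272 and 1569 CPM in the N2 libraries, 3896 and 6335 in UM10 on K12, and 6571 and 4595 in UM10 on csgA(-). All 16 were higher in UM10 in each comparison with N2. Of them edgeR called 11 higher in UM10 on K12, 13 in UM10 on csgA(-) and 13 in all 4 UM10 libraries. Over all genes it called 2.2%, 3.95% and 5.07% higher in the same order. For all 4 UM10 libraries the median log2 fold change of the markers was 2.37. Among the called ones, puf-5, an RNA-binding protein of oocytes, had a log2 fold change of 2.69 ± 0.50 (adjusted p 0.0105) and egg-2, a receptor of the egg surface needed for sperm entry, 2.65 ± 0.42 (adjusted p 0.00702). DESeq2 called 14, 15 and 15 of the markers in the same order, and 1165, 2584 and 2640 genes in all, higher or lower. The edgeR calls were also counted with single libraries left out. Such a fit leaves 1 library in a group and has less power, so it cannot tell lost power from a dependence on that library. Without N2 replicate 1, edgeR called 0 of the 16 in each of these comparisons, and the median for all UM10 libraries was 1.83, with 16 of 16 positive. For UM10 on K12 it also called 0 without N2 replicate 2 and 0 without UM10 on K12 replicate 1, and 2 without UM10 on K12 replicate 2, and for UM10 on csgA(-) it called 0 without UM10 on csgA(-) replicate 1. Between the foods their median was 0.00, with 8 of 16 higher and 0 called by edgeR or DESeq2, and with 0 at an unadjusted p under 0.05.

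Of the 9 genes for sensing of major sperm protein and oocyte maturation, 5 were higher and 4 lower in all UM10 libraries, and edgeR called 4 higher and 0 lower, where 5.07% of all genes were called higher and 5.25% lower. The oocyte maturation regulator oma-2 was at 31.9 and 66.5 CPM in the N2 libraries, 269 and 364 in UM10 on K12, and 340 and 215 in UM10 on csgA(-), and oma-1, inx-14 and inx-22 were the others. The receptor gene vab-1 had a log2 fold change of 1.07 ± 0.41 (edgeR adjusted p 0.115). Negative values were those of gsa-1, a G protein subunit gene, at -1.06 ± 0.34 (adjusted p 0.0686, and the 1 lower gene at an unadjusted p under 0.05), and of ceh-18, goa-1 and acy-4, at -0.58, -0.37 and -0.23. Of the msp genes, which encode the ligand, only msp-74 was called in that comparison, and it was lower.

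Among 18 genes that decide between sperm and oocyte fate, 16 were higher and 2 lower in all UM10 libraries against N2, at a median log2 fold change of 0.61. There edgeR called 3 higher and 0 lower, where 5.07% of all genes were called higher and 5.25% lower. Between the foods 14 of 18 were positive at a median of 0.26. The sperm-promoting genes fem-3 and fog-2 were called, with log2 fold changes of 1.98 and 1.77 and adjusted p of 0.0231 and 0.0281, as was puf-8, at 1.69 and 0.0224. The sperm-fate gene fog-3, which acts at the end of that pathway, was at 2.61 and 8.78 CPM in the N2 libraries, 2.09 and 4.24 in UM10 on K12, and 10.1 and 7.26 in UM10 on csgA(-). It was not called.

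Markers of other cells were followed too. Libraries of different groups overlapped in the yolk, general germline and male seminal fluid sums. The 6 yolk protein genes of the adult intestine summed to 41957 and 22437 CPM in the N2 libraries, 11306 and 18785 in UM10 on K12, and 26683 and 6377 in UM10 on csgA(-), and edgeR called vit-1 and vit-4 lower in all UM10 libraries, with log2 fold changes of -2.23 ± 0.46 and -2.76 ± 0.70. General germline markers summed to 247 and 701 CPM in the N2 libraries, 647 and 1094 in UM10 on K12, and 1258 and 991 in UM10 on csgA(-), and the RNA-binding protein gene mex-3 was called higher in all UM10 libraries, at 2.01 ± 0.49. Between the foods 7 of these 8 markers were positive, at a median of 0.39, so most had the direction of the sperm genes there. However, only 1 of the 8 lay apart upwards, where 21.7% of all genes did, and edgeR gave 0 an unadjusted p under 0.05. Somatic markers summed to 2058 and 3341 CPM in UM10 on K12 against 4525 and 5699 in N2 and 6365 and 5777 in UM10 on csgA(-), sums in which the muscle myosin gene unc-54 had the highest level. Of the 7 genes, 3 were higher and 4 lower between the foods, at a median of -0.17. In UM10 on K12 against N2, 1 was higher and 6 lower, at a median of -0.42, which was 0.10 with library totals and no scaling factors. The cuticle collagen gene dpy-7 was called lower, at -1.57 ± 0.39 for all UM10 libraries. Male sensory neuron genes were at 0.5 to 1.3 CPM in sum, with 6 of 8 at 0 in at least 1 library and 1 of 8 tested, and the 2 male seminal fluid genes were at 14.3 to 42.5 CPM in sum. The part of these markers in the sperm gene differences was not tested.

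**Figure D5:**
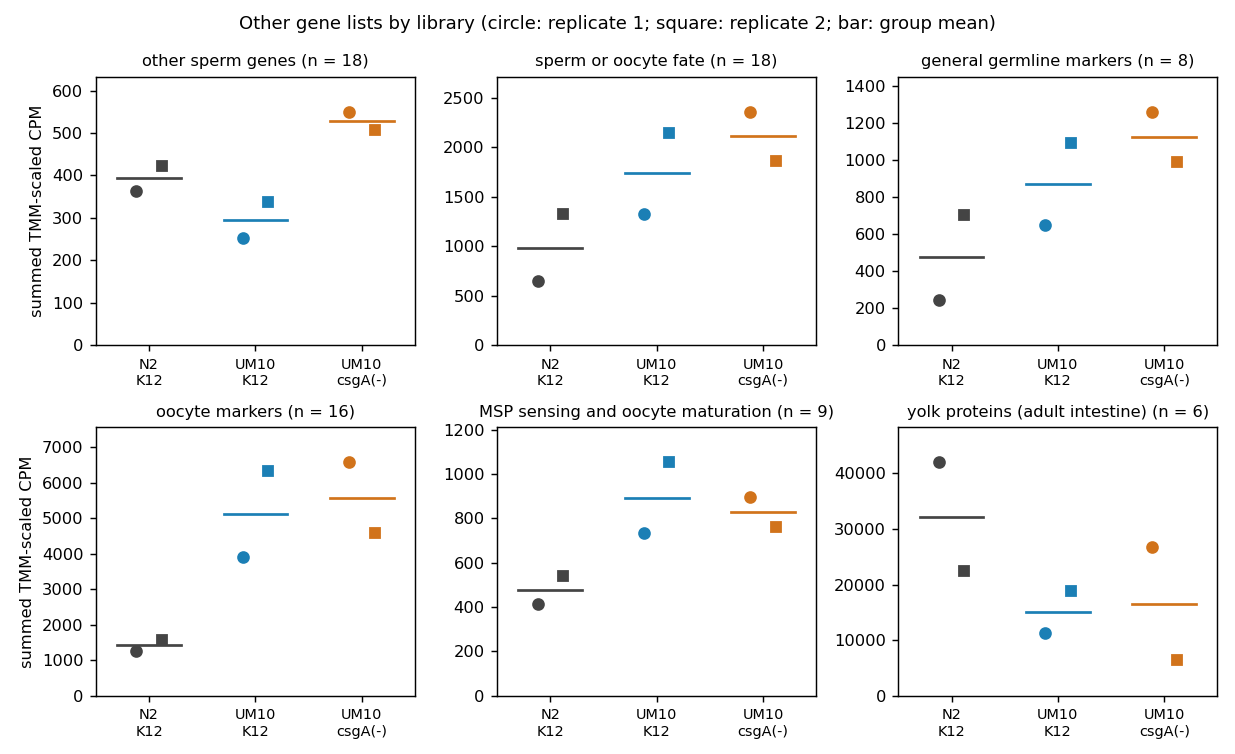
Summed TMM-scaled CPM of 6 other gene lists in each library, with circles for replicate 1, squares for replicate 2 and a bar for the group mean. Other sperm genes are highest in UM10 on csgA(-) and, on this scale but not as shares of all gene counts, lowest in UM10 on K12, while oocyte markers lie at 1272 and 1569 CPM in N2 and at 3896 CPM or more in each UM10 library.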

How the data were processed

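The authors deposited 1 table per library of raw read counts per gene, unstranded and for each strand, in the layout of STAR gene counts. STAR 2.7.5, DESeq2 1.28.1 and WBcel235 are named in the submitters' processing notes. The unstranded deposited counts were used as they stand, and the summary lines (7.85% to 8.72% of reads) were left out. Of 46778 identifiers, 46603 were in the Ensembl annotation.

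Genes were kept by filterByExpr, by group, with its minimum count set at 10 and its minimum total at 15, and 15331 remained. The minimum of 10 was not required in every library, so tested genes such as msp-74 and ssp-37 could fall below it in some. Differences were tested with the quasi-likelihood test of edgeR 4.0.16 in R 4.3.3 on all 6 libraries with 1 term per group, TMM scaling, 3 residual degrees of freedom and Benjamini-Hochberg adjustment, and called at an adjusted p under 0.05. The common dispersion was 0.152. The standard error of a log2 fold change is its absolute value divided by the root of F. The test was tried on simulated data. DESeq2 1.42.0 was an alternative. CPM are TMM-scaled. Single-library counts below about 10 carry large counting error.

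The genes, gene lists and tests were chosen with earlier results of these data known. Named genes were those called, the 3 most abundant per length in each family, 20 spe genes of known role, and up to 5 called genes per list. Others, and the neighbours of ssp-37 and msp-74, were chosen after their values were seen. No sequences were read. Values of 2 tested spe genes are not reported singly here, and these genes remain in the counts and medians of the families.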

Additional observations from a re-analysis of the deposited data

Results flagged for a closer look

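Among 40 levels examined in the 4 UM10 libraries, 2 had a library far from the other 3. Chance flags about 1 in 20 such groups. The summed level of the 4 msd genes was 69.0 CPM in UM10 on csgA(-) replicate 1, against 45.4, 46.8 and 47.1 CPM in the others, and the gap was 0.925 of the range, above Dixon's critical value for 4 samples. Its main part was msd-4, at 40.3 CPM in the same library against 28.4, 27.6 and 25.99 CPM, with a gap of 0.833 of the range.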

How the results depend on the processing

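No called value changed sign in any alternative. The number of sperm genes called in UM10 on K12 against N2 was 1, and it became 0 with upper-quartile scaling and with the second stranded column, and 2 without the filter on low counts, with the replicate block, with only the libraries compared, with food from the file names and in DESeq2. It was 0 to 2 with 1 library left out. Between the foods it was 0, and 1 without the filter and in DESeq2. In UM10 on csgA(-) against N2 it was 2, and 1 with library totals and no scaling factors and with food from the file names, and 0 to 1 with 1 library left out. For all UM10 libraries it was 2, and 0 to 2 with 1 library left out. Without N2 replicate 1 no sperm gene was called against N2, and the calls over all genes fell from 421, 1388 and 1582 to 2, 157 and 49 in UM10 on K12, UM10 on csgA(-) and all UM10 libraries. With 1 library left out, a group holds 1 library and the test has less power, so calls lost there cannot be laid to that library. Over all genes the calls were 1333, 470, 2705 and 2831 without the filter, 1165, 243, 2584 and 2640 in DESeq2, and 421, 0, 1388 and 1582 as reported, in the order K12 against N2, food, csgA(-) against N2 and all UM10.

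The median log2 fold change of the sperm genes in UM10 on K12 against N2 was -0.47, and 0.10 with library totals and no scaling factors (chosen after the data were seen) and 0.23 with food from the file names. Between the foods it was 0.66, and -0.66 with food from the file names and 0.37 to 0.78 with 1 library left out. In UM10 on csgA(-) against N2 it was 0.23, and 0.60 with library totals, -0.47 with food from the file names and -0.022 to 0.31 with 1 library left out. For all UM10 libraries it was -0.17, and 0.33 with library totals. With food from the file names the UM10 groups only trade places, so those values, and the reversed sign of each food difference, follow from the main ones. Library totals differ from the main scaling only in leaving out the TMM factors, such as the 0.610 of N2 replicate 1. The cause of the changes with 1 library left out was not tested. For single genes, 1869 of the recomputed values kept their direction and call, 21 lost the call, 9 gained it and 275 others, none of them called, changed sign.

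Same-numbered deviations correlated at 0.35 between N2 and UM10 on K12, -0.08 between N2 and UM10 on csgA(-), and 0.09 between the UM10 groups. The main test did not pair libraries by replicate number, and whether the numbers pair N2 with UM10 on K12 was not tested. With the replicate block, sperm genes called were 2, 0, 2 and 2 for K12 against N2, food, csgA(-) against N2 and all UM10. The medians of the tested sperm genes were -0.46, 0.65, 0.27 and -0.10, and 845, 165, 2434 and 2418 genes were called in all. Depth limits the genes under about 10 counts a library.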

Other observations

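Several sperm genes outside the rule for named genes were chosen after their values were seen. The calcium channel gene spe-41 was at 3.48 and 13.4 CPM in the N2 libraries, 3.23 and 6.30 in UM10 on K12, and 13.6 and 10.5 in UM10 on csgA(-), so N2 replicate 1 lay with UM10 on K12 and N2 replicate 2 with UM10 on csgA(-). In spe-19 (sperm activation) the values were 3.55 and 5.10, 1.06 and 2.17, and 4.48 and 3.53 CPM, lowest in UM10 on K12. The rhomboid-related gene spe-46 was at 8.33 and 8.34, 4.44 and 5.08, and 10.1 and 9.52 CPM, and ssp-16 at 8.91 and 9.51, 3.52 and 4.57, and 9.12 and 8.79 CPM. In spe-46 and ssp-16 the N2 replicates were close to each other and both UM10 on K12 libraries were lowest. These orders are those of the TMM scale, which raises N2 replicate 1 by its factor of 0.610. None of these 4 genes was called by edgeR in any of the 4 comparisons. Against that order, nspd-9 was at 4.71 and 4.89, 4.91 and 4.79, and 3.29 and 6.53 CPM, and the 2 csgA(-) libraries lay on either side of the rest.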
